A study of Mus musculus with 54 samples.

Results

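The mitochondrial carriers of the SLC25 family were followed here in the hearts and livers of mice with altered accuracy of mitochondrial translation. Members were the protein-coding genes named Slc25a and a number, and 47 of the 54356 genes in each tissue's table met this rule, with the same 47 in both tissues. A gene was tested when its mean over the 9 mice of a tissue was at least 10 normalized counts, the unit of all levels below, in which each mouse is scaled to the depth of the others of its tissue. Of the 47 members, 40 were tested in the heart, among 16057 genes, and 41 in the liver, among 15314, and 39 were tested in both. The other members were below this mean, and Slc25a54 was at 0 in every heart and liver.

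The study asked how more or less accurate mitochondrial protein synthesis bears on a high-fat diet (HFD). All mice were C57BL/6 males, 20 weeks old, on a diet with 42% of its energy from fat. They were Mrps12+/+, homozygous for the error-prone allele (Mrps12ep/ep) or homozygous for the hyper-accurate allele (Mrps12ha/ha), with 3 mice of each genotype per tissue. Mrps12 encodes a protein of the small subunit of the mitochondrial ribosome, at its decoding centre, and both alleles carry a point mutation of it throughout the body. The Mrps12+/+ mice were age-matched littermates on the same HFD, so that no group without the diet enters the comparisons. Whole hearts and whole livers were extracted, and a lower level in such RNA cannot tell fewer cells of a type from less RNA per cell. One set of Mrps12+/+ mice served as controls for both mutants, so the comparisons with them are not independent.

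SLC25 proteins sit in the inner mitochondrial membrane, apart from a few that moved to the outer membrane or to peroxisomes. Each exchanges or co-transports small molecules, and so sets which nucleotides, phosphate, amino acids, acyl groups and cofactors pass between the cytosol and the matrix. All are encoded in the nucleus, made in the cytosol and imported. In the heart the adenine nucleotide and phosphate carriers feed ATP synthesis, and in the liver the carriers of citrate, dicarboxylates, ornithine and aspartate serve fatty acid synthesis, gluconeogenesis and the urea cycle.

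The genes lie on 19 chromosomes, with 4 on the X chromosome and at most 5 on any one. In 4 places a pair of members lies within 18.4 kb, namely Slc25a29 with Slc25a47, Slc25a41 with Slc25a23, Slc25a54 with Slc25a24 and Slc25a43 with Slc25a5. The gap of 0.2 kb between Slc25a29 (chr12:108825873-108835883) and Slc25a47 (chr12:108836046-108856815) in GRCm38.p6 is the shortest of these. Their levels in the liver did not go together. Slc25a47 had the highest Mrps12+/+ mean of the family there, 33246 ± 5907 (SD, n = 3), and Slc25a29 had values of 72.1 to 149 over the 9 mice. Heart means in Mrps12+/+ were 252 ± 43.6 for Slc25a47 and 188 ± 10.1 for Slc25a29. The coding length ran from 795 bases in Slc25a2 to 2031 in Slc25a12, with a median of 954.

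RefSeq promoter windows of 300 bases, 250 before to 50 after a transcription start in GRCm38.p6, were listed for 36 members, with 46 windows in all. Their median GC content was 59.3%, beside 52.7% over all 32851 windows. The full cyclic AMP response element (CRE) TGACGTCA, which reads the same on both strands, was in 2 of the 46 windows, 4.35%, and in 1.79% of all windows. The oestrogen-related receptor element TCAAGGTCA, searched on both strands, was in none of the 46 and in 0.423% of all windows. The windows that hold the CRE belong to Slc25a25 and Slc25a36, and they are shown because they hold the element and because Slc25a25 is among the members described by genotype below. The element is in capitals.
Slc25a25, chr2:32424017-32424316, minus strand: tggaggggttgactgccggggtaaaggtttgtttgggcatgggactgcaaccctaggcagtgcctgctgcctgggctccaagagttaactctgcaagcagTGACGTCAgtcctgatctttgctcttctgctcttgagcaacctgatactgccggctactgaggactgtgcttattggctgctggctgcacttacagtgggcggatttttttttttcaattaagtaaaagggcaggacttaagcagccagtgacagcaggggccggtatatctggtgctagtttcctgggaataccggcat
Slc25a36, chr9:97110992-97111291, minus strand: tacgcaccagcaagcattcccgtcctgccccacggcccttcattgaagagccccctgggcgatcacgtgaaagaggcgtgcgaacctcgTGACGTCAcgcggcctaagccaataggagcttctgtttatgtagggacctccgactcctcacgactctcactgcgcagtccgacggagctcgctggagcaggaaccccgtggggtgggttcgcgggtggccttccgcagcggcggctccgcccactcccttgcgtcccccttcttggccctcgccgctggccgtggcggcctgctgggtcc
The Slc25a25 window is 1 of 3 listed for the gene and lies inside it. It overlaps no annotated exon, is spanned by 6 of the 12 GENCODE transcripts, and its start is 61 bases from the nearest GENCODE start. The element begins 150 bases before the start in Slc25a25 and 161 bases before it in Slc25a36. Such matches describe the letters of these windows only, and no binding was measured.

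Hearts held 11202866 to 51480271 reads on genes and livers 21238039 to 81518262, and the shallowest was the heart of Mrps12ha/ha mouse 2, where 1 read was worth 3.02 normalized counts. Several samples stood apart. The hearts carried 6 cardiomyocyte markers at a sum of at least 1888166 and the livers 6 hepatocyte markers at 4467638 or more. The livers of Mrps12+/+ mice 1 and 2 held 7 skeletal muscle markers at sums of 17445 and 20818, where the other 7 livers had 20.0 to 146. In the hearts the same markers had sums of 7027 to 37674 in Mrps12+/+, 6978 to 10578 in Mrps12ep/ep and 3020 to 3411 in Mrps12ha/ha, so that all Mrps12ha/ha hearts lay below the other 6, and the part of this in the heart comparisons was not tested. The liver of Mrps12+/+ mouse 3 had white adipocyte markers at 7784, where the other livers had 172 to 2942, and the lowest sum of hepatocyte markers, 4467638. The liver of Mrps12ha/ha mouse 3 held cardiomyocyte markers at 6962, where the other livers had 43.1 to 415. In the hearts, atrial markers ran from 1682 to 377881, with the highest sum in Mrps12ep/ep mouse 2, and white adipocyte markers reached 6069 in Mrps12+/+ mouse 3 and at most 841 elsewhere. Erythroid markers were at 464536 and 1412562 in the hearts of Mrps12ha/ha mice 1 and 3 and at 91898 to 235749 in the other hearts. Hepatocyte markers ran from 1477 to 15427 in the hearts. They were at 15248 in Mrps12ha/ha mouse 2, beside 2386 and 4563 in mice 1 and 3. Brown adipocyte markers were at 12172 in the heart of Mrps12+/+ mouse 3 and at most 1737 in the other hearts. Mrps12 itself had 1028 to 1156 normalized counts in Mrps12+/+, 1066 to 1292 in Mrps12ep/ep and 1084 to 1397 in Mrps12ha/ha hearts. Its point mutations need not change its level, so it does not check the labels.

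In the heart the family was dominated by its ATP-related carriers. Slc25a4, the adenine nucleotide translocase of heart and muscle, had 146552 ± 6081 normalized counts in the Mrps12+/+ mice (SD, n = 3) and made up 53.4% of the summed level of all 47 members. Slc25a3, the phosphate carrier, had 40880 ± 1769, and these 2 genes together held 68.3%. Then came Slc25a11, the oxoglutarate carrier of the malate-aspartate shuttle, with 14177 ± 340, and Slc25a34, a carrier without an established substrate, with 7909 ± 1026. Slc25a12 (aralar), the aspartate-glutamate carrier of the same shuttle, had 7894 ± 168, and Slc25a20, which carries acylcarnitines to fatty acid oxidation, had 7730 ± 571. Slc25a5, the second adenine nucleotide translocase, had 7301 ± 732 and Slc25a42, a coenzyme A carrier, 5039 ± 366. These 8 genes held 86.5% of the summed level.

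Between genes, levels were compared per kilobase of transcript. The length was that of the longest transcript among those with the longest coding sequence, which need not be the one expressed. On this scale the order in Mrps12+/+ hearts was Slc25a4 (76131 normalized counts per kilobase), Slc25a3 (30485), Slc25a11 (8286), Slc25a5 (5888) and Slc25a20 (4336), and the ranges of the 3 mice did not overlap between neighbours in this part of the order. Slc25a39, a carrier for glutathione (2976), and Slc25a34 (2962) overlapped, as did Slc25a42 (1577) and Slc25a13 (1318). Slc25a12, with the longest transcript of the family at 6351 bases, was lower on this scale, at 1243.

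The liver had no such leader, and its first 8 genes held 65.4% of the summed level. Slc25a47, known as a carrier largely of the liver, had 13.9% of it. Slc25a39 had 22524 ± 3839, Slc25a22, a glutamate carrier, 18557 ± 3608, and Slc25a23, an exchanger of ATP-Mg for phosphate that is regulated by calcium, 17547 ± 1489. Slc25a5 had 17459 ± 1572 and Slc25a25, another ATP-Mg/phosphate exchanger, 17319 ± 3394. Slc25a15, the ornithine carrier of the urea cycle, had 16108 ± 4034, and Slc25a1, which exports citrate for fatty acid synthesis, had 13509 ± 1878. Per kilobase the order was Slc25a47 (21042), Slc25a5 (14080), Slc25a39 (13368), Slc25a3 (8162), Slc25a1 (8109), Slc25a10 (6667), Slc25a22 (6602), Slc25a25 (5258) and Slc25a23 (5219). Only Slc25a47 was apart from its neighbour, and Slc25a39 from Slc25a3. All other neighbours in this order overlapped.

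**Figure D1:**
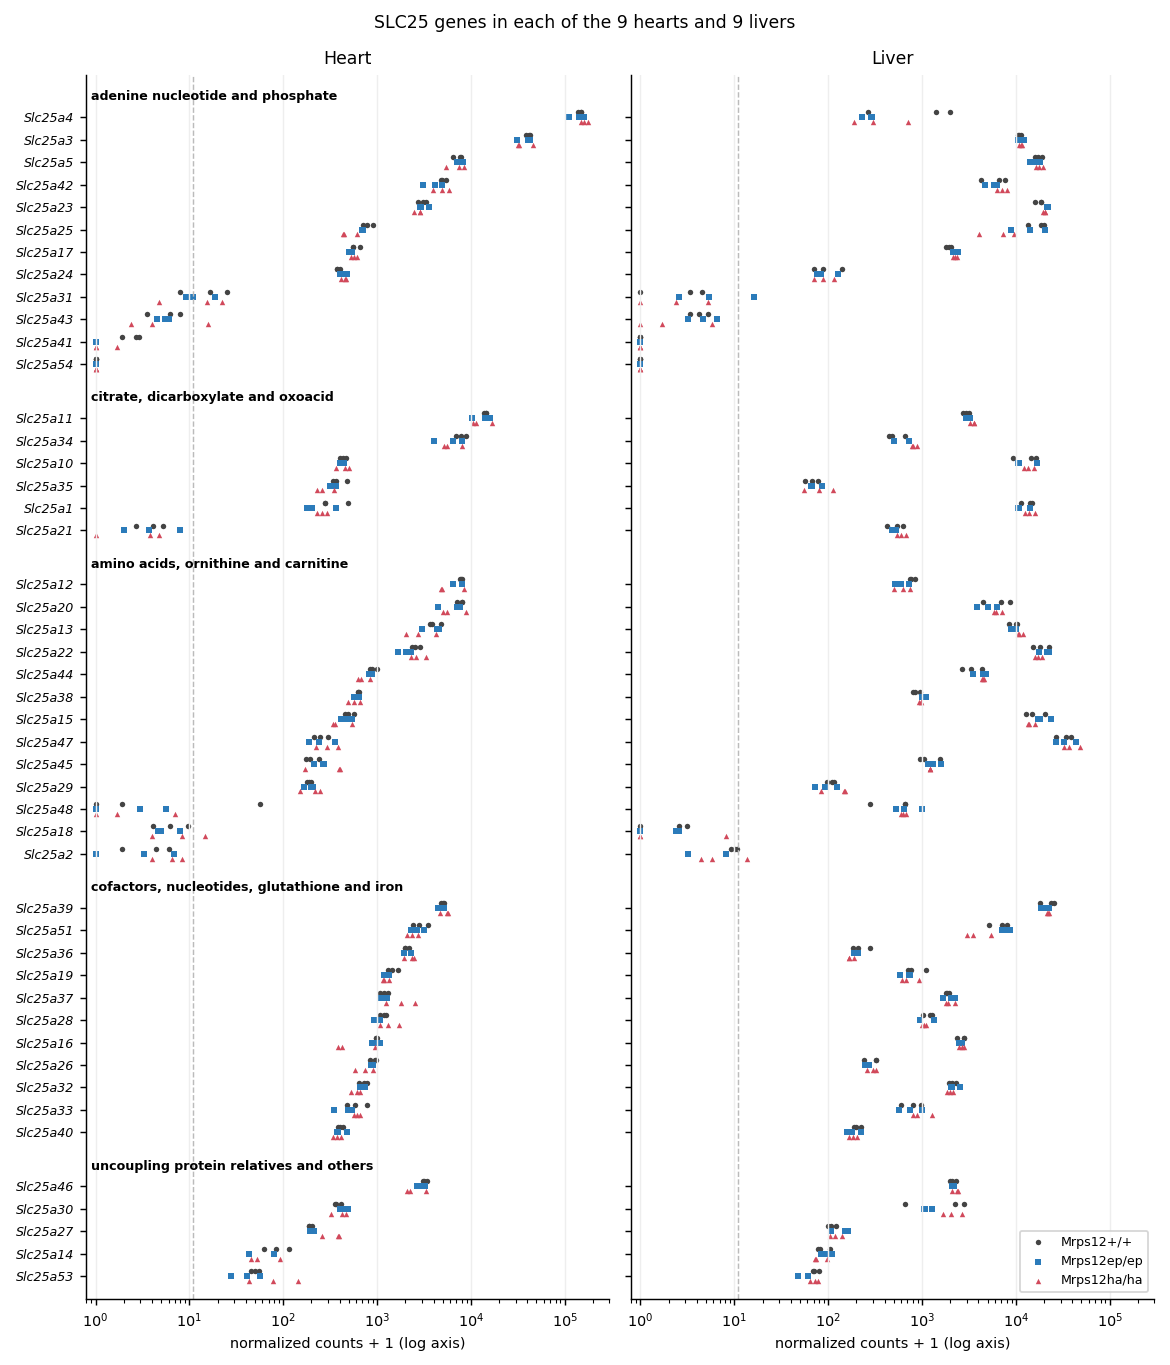
Normalized counts plus 1 (log axis) of all 47 SLC25 genes in each heart (left) and liver (right), grouped by substrate, with 1 point per mouse and the colour and shape giving the genotype. The dashed line marks the mean of 10 normalized counts needed for a test. In the heart Slc25a4 and Slc25a3 lie above every other member, and in the liver Slc25a47 has the highest mean and Slc25a4 spreads from 188 to 2009.

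Heart and liver were normalized separately, so their levels are set side by side without a test. Of the members tested in at least one tissue, 10 had Mrps12+/+ means at least 10-fold apart in the tables, 3 of them higher in hearts and 7 higher in livers. The heart genes were Slc25a4 (146552 in the heart and 1232 in the liver), Slc25a12 (7894 and 786) and Slc25a34 (7909 and 531). The liver value of Slc25a4 rests on the livers with skeletal muscle markers, since mouse 3 had only 268. The liver genes were Slc25a47 (252 in the heart and 33246 in the liver), Slc25a21, an oxoadipate carrier (3.03 and 531), Slc25a1 (351 and 13509), Slc25a15 (506 and 16108), Slc25a10, the dicarboxylate carrier (435 and 13487), Slc25a48, a choline carrier (18.7 and 533), and Slc25a25 (800 and 17319). The heart mean of Slc25a48 came from a single heart, that of Mrps12+/+ mouse 3, with 55.3 beside 0 to 6 in the other 8. The heart of mouse 3 was also the one with the most adipocyte markers, and the part of these in the value was not tested. Over the 39 members tested in both tissues, Spearman's rho of the Mrps12+/+ means was 0.38, as a description across genes.

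Per kilobase of transcript, the order of closely related carriers differed between the tissues for some pairs. Slc25a4 exceeded Slc25a5 per kilobase 10.2- to 17.7-fold in all 9 hearts, and Slc25a5 exceeded Slc25a4 13.4- to 135-fold in all 9 livers, with the lowest ratios in the livers with skeletal muscle markers. The aspartate-glutamate carriers Slc25a12 and Slc25a13 (citrin) were level in the heart on this scale, where the ratio of Slc25a13 to Slc25a12 ran from 0.863 to 1.26. In the liver Slc25a13 was 22.4- to 48.7-fold higher. The level ratio in the heart holds per kilobase of transcript only, with transcripts of 6351 and 3121 bases. Their coding lengths are 2031 and 2028 bases, and the Mrps12+/+ heart means of Slc25a12 and Slc25a13 were 7894 and 4114 normalized counts. Of the pyrimidine nucleotide carriers, Slc25a36 was 1.02- to 2.01-fold above Slc25a33 in the hearts and Slc25a33 was 5.87- to 21.3-fold above Slc25a36 in the livers. These sizes too depend on the transcripts, of 5227 and 1887 bases. In normalized counts the Mrps12+/+ heart means of Slc25a36 and Slc25a33 were 2059 and 613, and the liver means 222 and 793. Other pairs kept their order. Slc25a39 was 16.5- to 27.9-fold above its relative Slc25a40 in the hearts and 137- to 237-fold above it in the livers. The mitochondrial iron importer Slc25a28 (mitoferrin 2) was 1.85- to 3.16-fold above Slc25a37 (mitoferrin 1) in the hearts and 1.21- to 1.94-fold in the livers. This order holds per kilobase only, with transcripts of 1535 and 4174 bases. In normalized counts the Mrps12+/+ means of Slc25a28 and Slc25a37 were 1172 and 1189 in the heart and 1176 and 1862 in the liver. Slc25a15 and Slc25a22 were above Slc25a2 and Slc25a18, neither of which passed the filter in any tissue.

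In Mrps12ha/ha hearts, no SLC25 gene passed the test against Mrps12+/+. With limma and Benjamini-Hochberg adjustment over all genes tested, 0 of 40 members had an adjusted p under 0.05, beside 0.0311% of all genes. At an unadjusted p under 0.05 there were 6 members (15.0%), beside 19.7% of all genes. The 3 mutant mice lay above all 3 Mrps12+/+ mice in 2 members and below them in 2, which is 5.0% each, beside 11.1% and 10.0% of all genes. By each of these counts the family had no more differences than the other genes.

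The member with the smallest unadjusted p was Slc25a27, also called uncoupling protein 4. It had 203, 186 and 189 normalized counts in the Mrps12+/+ hearts, 210, 194 and 198 in the Mrps12ep/ep hearts and 390, 260 and 379 in the Mrps12ha/ha hearts. All 3 Mrps12ha/ha hearts were above the other 6. The log2 fold change against Mrps12+/+ was 0.81 (SE 0.18, 95% interval 0.41 to 1.21), with an adjusted p of 0.176 from limma and an exact two-sided permutation p of 0.1, the smallest that 3 against 3 mice allow.

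Slc25a25 had 782, 709 and 909 in Mrps12+/+, 692, 704 and 706 in Mrps12ep/ep and 438, 447 and 614 in Mrps12ha/ha hearts. Every Mrps12ha/ha heart was below every heart of the other genotypes, and the Mrps12ep/ep hearts were below all Mrps12+/+ hearts by a narrow margin. The log2 fold change in Mrps12ha/ha was -0.69 (SE 0.16, 95% interval -1.04 to -0.34, limma adjusted p of 0.184).

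Slc25a16, which is linked to the transport of coenzyme A into the matrix, had 976, 1004 and 986 in Mrps12+/+ hearts and 379, 951 and 422 in Mrps12ha/ha hearts. Mice 1 and 3 were far below the controls and mouse 2 was just below them. This gave a log2 fold change of -0.89 (SE 0.29, limma adjusted p of 0.213). Slc25a44, which carries branched-chain amino acids, had a log2 fold change of -0.36 (SE 0.14) and Slc25a37 one of 0.58 (SE 0.22), both with a limma adjusted p of 0.221.

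Slc25a37 brings iron into mitochondria and is most active in the red cell lineage. It had 1316, 1079 and 1173 in Mrps12+/+ hearts, 1179, 1283 and 1092 in Mrps12ep/ep hearts and 1793, 1238 and 2528 in Mrps12ha/ha hearts. The hearts with the highest values, of Mrps12ha/ha mice 1 and 3, were those with the highest sums of the 6 erythroid markers, 464536 and 1412562, while mouse 2, with 199296, was among the other hearts in both measures. Without mouse 1 the log2 fold change was 0.58 (limma adjusted p of 0.54) and without mouse 3 it was 0.33 (adjusted p of 0.494). The part of blood cells in the Slc25a37 values was not tested.

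**Figure D2:**
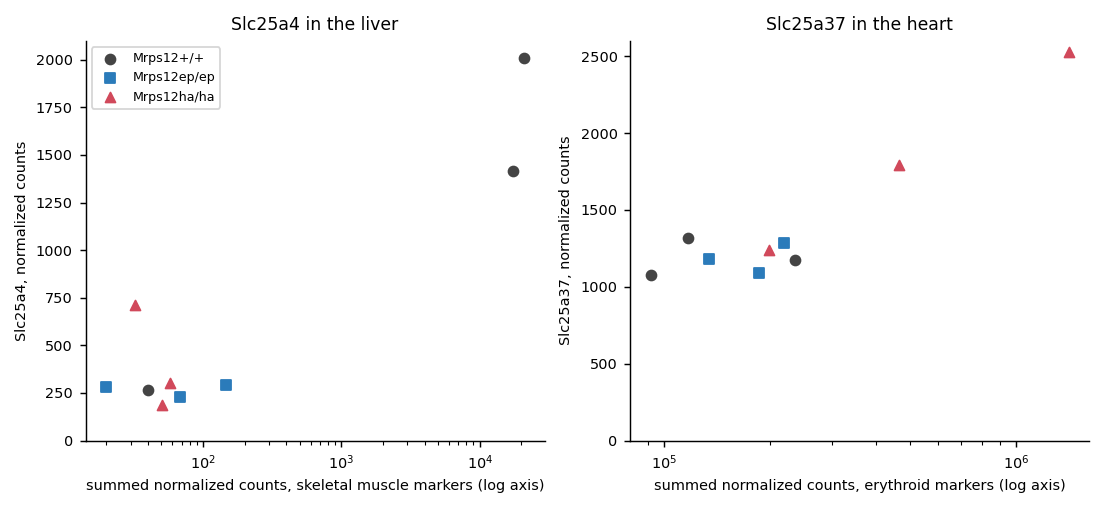
Left, Slc25a4 in each liver against the summed normalized counts of 7 skeletal muscle markers, and right, Slc25a37 in each heart against the sum of 6 erythroid markers, with a log x axis, a linear y axis and 1 point per mouse. The livers of Mrps12+/+ mice 1 and 2 (1418 and 2009) are apart on both axes, and the hearts of Mrps12ha/ha mice 1 and 3 (1793 and 2528) are highest on both.

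These counts moved with the heart of Mrps12ha/ha mouse 2. Among the 3 Mrps12ha/ha hearts it had the highest value in 21 of 40 members, where it was highest in 40.2% of all genes. Among these 21 were Slc25a3, Slc25a11, Slc25a12 and Slc25a20, but not Slc25a4 (175782, 161346 and 150302 in Mrps12ha/ha mice 1, 2 and 3) or Slc25a39. Slc25a3 had 46485 in mouse 2 and 32511 and 31529 in mice 1 and 3, Slc25a11 had 16988 beside 11466 and 10566, and Slc25a20 had 8952 beside 5600 and 5093. Slc25a12 had 8360 in mouse 2 beside 4985 and 4815, with 7719, 8053 and 7908 in the Mrps12+/+ hearts.

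The 2 mutant hearts left without mouse 2 were those with the highest erythroid sums, and the part of this in the calls was not tested. Without mouse 2, with 2 mice against 3, 12 of 40 members (30%) had an adjusted p under 0.05, 3 higher and 9 lower, beside 27% of all genes, which is a share near the background. Weighting each mouse by its agreement with its group (array weights) gave 15 members (37.5%), beside 34.7% of all genes. The 9 lower members were Slc25a12, Slc25a13, Slc25a15, Slc25a16, Slc25a25, Slc25a26, Slc25a35, Slc25a44 and Slc25a46, and the 3 higher ones Slc25a27, Slc25a37 and Slc25a45. Slc25a16 then had a log2 fold change of -1.30 (SE 0.11, limma adjusted p of 0.00174), Slc25a27 one of 0.99 (SE 0.13, adjusted p of 0.0033) and Slc25a12 one of -0.69 (SE 0.11, adjusted p of 0.00546). Slc25a26, the carrier of S-adenosylmethionine, had -0.49 (SE 0.13, adjusted p of 0.0253), and Slc25a46, an outer membrane protein of mitochondrial dynamics, had -0.58 (SE 0.11, adjusted p of 0.00763). Leaving out the heart unlike those of mice 1 and 3 also takes out spread between mice. For Slc25a16 the SE was 0.29 with all mice and 0.11 without mouse 2. Array weights likewise discount a mouse that differs from its group, so the p-values of both settings may be too small. Slc25a4 and Slc25a3, the leading genes, were not among the 12. With all mice, Slc25a4 differed by 0.15 (95% interval -0.37 to 0.67) and Slc25a3 by -0.17 (-0.62 to 0.27).

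In Mrps12ha/ha livers no member passed the test either. Of 41 members 0 had an adjusted p under 0.05, beside 0.00653% of all genes, and 6 (14.6%) had an unadjusted p under 0.05, beside 14.1%. The 3 Mrps12ha/ha livers were above all Mrps12+/+ livers in 6 members (14.6%), beside 10.0% of all genes, and below them in 1 (2.44%), beside 9.81%. The 6 were Slc25a11, Slc25a13, Slc25a17, Slc25a23, Slc25a34 and Slc25a44, and the 1 was Slc25a25.

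Slc25a25 had 19934, 13483 and 18541 normalized counts in Mrps12+/+ livers, 20443, 14316 and 8898 in Mrps12ep/ep livers and 9475, 4084 and 7247 in Mrps12ha/ha livers. Every Mrps12ha/ha liver was below every Mrps12+/+ liver, while Mrps12ep/ep mouse 3 lay inside the Mrps12ha/ha range. The log2 fold change of Mrps12ha/ha against Mrps12+/+ was -1.38 (SE 0.35, 95% interval -2.18 to -0.59), with a limma adjusted p of 0.158 and an exact permutation p of 0.1. Slc25a25 was thus the only member in which Mrps12ha/ha mice were below Mrps12+/+ mice without overlap in both tissues. Of 14070 genes tested in both, 246 were like this, or 1.75%. The labels number mice in each tissue and do not say whether a heart and a liver of the same number came from the same animal.

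Slc25a51, which imports NAD into the matrix, had 8111, 5140 and 7171 in Mrps12+/+, 7518, 7160 and 8636 in Mrps12ep/ep and 5426, 3519 and 2986 in Mrps12ha/ha livers. The Mrps12ha/ha livers were below all Mrps12ep/ep livers and overlapped Mrps12+/+ through mouse 1. On the log2 scale the difference was -0.80 (SE 0.23, limma adjusted p of 0.195) against Mrps12+/+ and -1.01 (SE 0.23, adjusted p of 0.417) against Mrps12ep/ep.

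Slc25a34 had 483, 662 and 448 in Mrps12+/+, 507, 500 and 732 in Mrps12ep/ep and 895, 792 and 786 in Mrps12ha/ha livers. All Mrps12ha/ha livers were above the other 6. The log2 fold change against Mrps12+/+ was 0.65 (SE 0.19, limma adjusted p of 0.198). In the heart, where this gene was higher, it had a log2 fold change of -0.36 (95% interval -0.95 to 0.23), and the difference between the tissues was not tested.

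Slc25a11 and Slc25a17, the latter a peroxisomal carrier of cofactors, had narrow spreads and small differences in Mrps12ha/ha livers. Slc25a11 had 2736, 3156 and 2950 in Mrps12+/+ and 3560, 3258 and 3589 in Mrps12ha/ha livers, a log2 fold change of 0.24 (SE 0.09, limma adjusted p of 0.299). Slc25a17 had 2060, 1937 and 1823 in Mrps12+/+ and 2142, 2333 and 2268 in Mrps12ha/ha livers, a log2 fold change of 0.21 (SE 0.09, adjusted p of 0.324). Slc25a47, the leading gene of the liver, had a log2 fold change of 0.23 with an interval of -0.26 to 0.73.

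**Figure D3:**
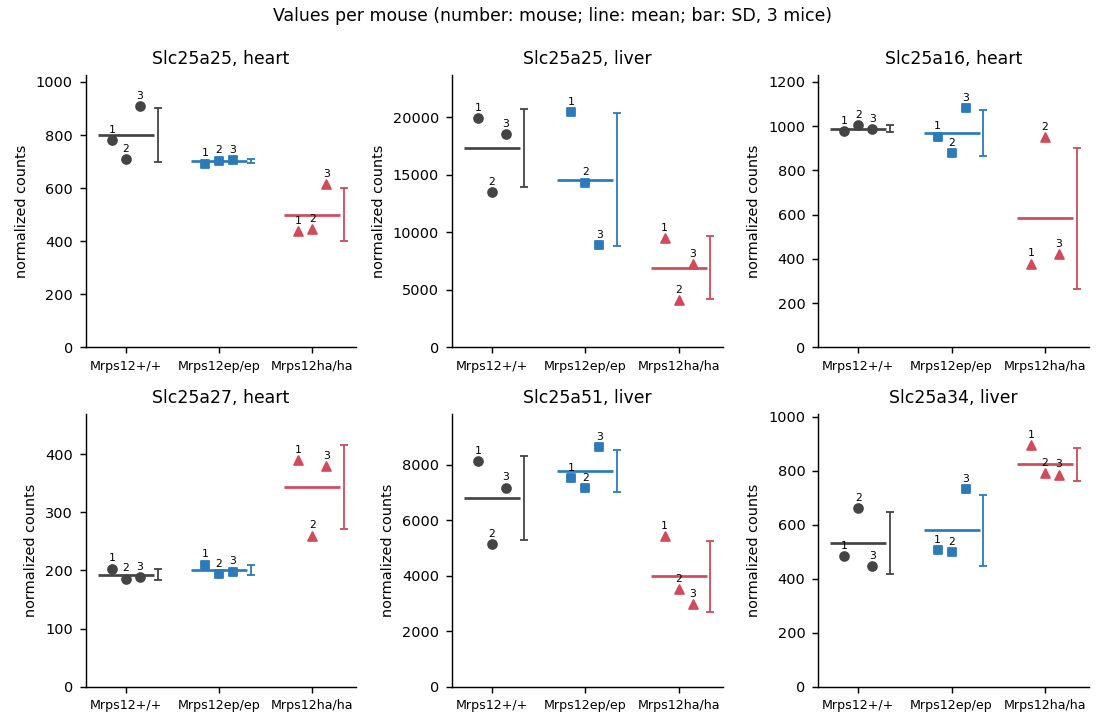
Normalized counts (y axis, from 0) of 5 members in the tissue named above each panel, with Slc25a25 in both tissues, 1 numbered point per mouse, a line for the mean and a bar for the SD of 3 mice. Slc25a25 is lower in all Mrps12ha/ha hearts (438 to 614) and livers (4084 to 9475) than in any Mrps12+/+ sample of that tissue, and Slc25a16 in Mrps12ha/ha hearts is split between mouse 2 (951) and mice 1 and 3 (379 and 422).

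In Mrps12ep/ep hearts 0 of 40 members had an adjusted p under 0.05, beside 0% of all genes, and 1 (2.5%) had an unadjusted p under 0.05, beside 1.69%. The one was Slc25a22, with 2514, 2837 and 2335 in Mrps12+/+ and 2290, 1656 and 2030 in Mrps12ep/ep hearts. All Mrps12ep/ep hearts were below the controls, and the log2 fold change was -0.37 (SE 0.16) with a limma adjusted p of 1. The next members by unadjusted p were Slc25a33 (-0.41, SE 0.21), Slc25a42 (-0.34, SE 0.19), Slc25a1 (-0.51, SE 0.31) and Slc25a34 (-0.41, SE 0.26), all with an adjusted p of 1. Non-overlapping groups were higher in 1 member (2.5%, beside 4.40%) and lower in 4 (10.0%, beside 3.64%). The former was Slc25a24, another ATP-Mg/phosphate exchanger, and the latter were Slc25a17, Slc25a22, Slc25a25 and Slc25a28. Mouse 2 had the lowest Mrps12ep/ep value in 23 of 40 members, where it was lowest in 38.7% of all genes. Slc25a20 had 4442 in it and 7672 and 7093 in mice 1 and 3, and Slc25a34 had 4019 beside 8044 and 6430. The same heart had the highest sum of atrial markers, whose part was not tested. Without it the log2 fold change of Slc25a22 was -0.24 and the median of the family, given below as -0.09, was -0.04, with 0 members called.

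In Mrps12ep/ep livers 0 of 41 members had an adjusted p under 0.05, beside 0.00653% of all genes, and 4 (9.76%) had an unadjusted p under 0.05, beside 9.74%. Slc25a23 had 18407, 18406 and 15827 in Mrps12+/+ and 22029, 21563 and 21442 in Mrps12ep/ep livers, without overlap. Its log2 fold change was 0.31 (SE 0.09, limma adjusted p of 0.433). Slc25a38, a glycine carrier needed for haem synthesis, had 946, 836 and 792 in Mrps12+/+ and 1003, 1095 and 1112 in Mrps12ep/ep livers, with 0.32 (SE 0.10, adjusted p of 0.435). Slc25a17 had 2118, 2394 and 2228 in Mrps12ep/ep livers, all above the controls, with 0.21 (SE 0.09, adjusted p of 0.491). Slc25a53, whose substrate is not established, had -0.50 (SE 0.23, adjusted p of 0.525). Non-overlapping groups were higher in 3 members (7.32%, beside 6.49%) and lower in 2 (4.88%, beside 6.28%). Slc25a17 was lower without overlap in Mrps12ep/ep hearts and higher in Mrps12ep/ep livers, as were 34 of the 14070 genes tested in both tissues (0.242%).

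Slc25a4 had the largest fitted difference of any member, with a log2 fold change of -1.78 in Mrps12ep/ep livers (SE 0.70, limma adjusted p of 0.48). It rested on the livers with skeletal muscle markers. The values were 1418, 2009 and 268 in Mrps12+/+, 292, 227 and 282 in Mrps12ep/ep and 302, 188 and 712 in Mrps12ha/ha livers. Both high values belong to Mrps12+/+ mice 1 and 2, and the 712 to the Mrps12ha/ha liver that held cardiomyocyte markers. The part of muscle cells in the Slc25a4 values was not tested. Without Mrps12+/+ mice 1 and 2 the log2 fold change in Mrps12ep/ep livers was -0.01, with 1 control liver left, mouse 3, whose spread is taken from the other groups and which had the most white adipocyte markers. In that fit 2 of 41 members passed in Mrps12ep/ep livers, Slc25a23 with 0.45 (SE 0.11, limma adjusted p of 0.0453) and Slc25a48 with 1.31 (SE 0.31, adjusted p of 0.048), and 0 passed in Mrps12ha/ha livers. Slc25a48 is named here after its values were seen. It had 662, 660 and 278 in Mrps12+/+ and 993, 527 and 635 in Mrps12ep/ep livers, so that its call rests on the single control liver at 278. Slc25a12 was the other member with its highest values in the muscle-rich livers, with 768 and 850 beside at most 750 elsewhere.

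The mutants were also compared with each other. In the heart 0 of 40 members had an adjusted p under 0.05, beside 0.0249% of all genes, and 6 (15.0%) had an unadjusted p under 0.05, beside 17.9%. Slc25a27 was higher in Mrps12ha/ha than in Mrps12ep/ep by 0.75 (SE 0.18, limma adjusted p of 0.227) and Slc25a22 by 0.46 (SE 0.16, adjusted p of 0.249), both without overlap. Slc25a25 differed by -0.50 (SE 0.16, adjusted p of 0.238), also without overlap, and Slc25a16 by -0.85 (SE 0.29, adjusted p of 0.246). Slc25a37 differed by 0.59 (SE 0.22, adjusted p of 0.253). Non-overlapping groups were higher in 3 members (7.5%, beside 8.77% of all genes) and lower in 2 (5.0%, beside 7.82%). Without Mrps12ha/ha mouse 2, 12 members (30%) passed, 6 in each direction, beside 23.2% of all genes, and with array weights 16 members (40.0%), beside 39.3%. In the liver 0 of 41 had an adjusted p under 0.05, beside 0.00653% of all genes, and 4 (9.76%) had an unadjusted p under 0.05, beside 8.62%. Besides Slc25a51, these were Slc25a25 (-1.07, SE 0.35, adjusted p of 0.499), Slc25a34 (0.53, SE 0.19, adjusted p of 0.516) and Slc25a15 (-0.44, SE 0.19, adjusted p of 0.568). Slc25a15 had 13704, 16149 and 13440 in Mrps12ha/ha and 23947, 17399 and 17918 in Mrps12ep/ep livers, which did not overlap. Slc25a13, the fifth by unadjusted p, differed by 0.22 (SE 0.10, adjusted p of 0.607). Non-overlapping groups were higher in 6 members (14.6%, beside 8.82% of all genes) and lower in 4 (9.76%, beside 9.01%). Slc25a23 was the member in which Mrps12ha/ha lay below Mrps12ep/ep without overlap in both tissues, as did 146 of the 14070 genes tested in both (1.04%).

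**Figure D4:**
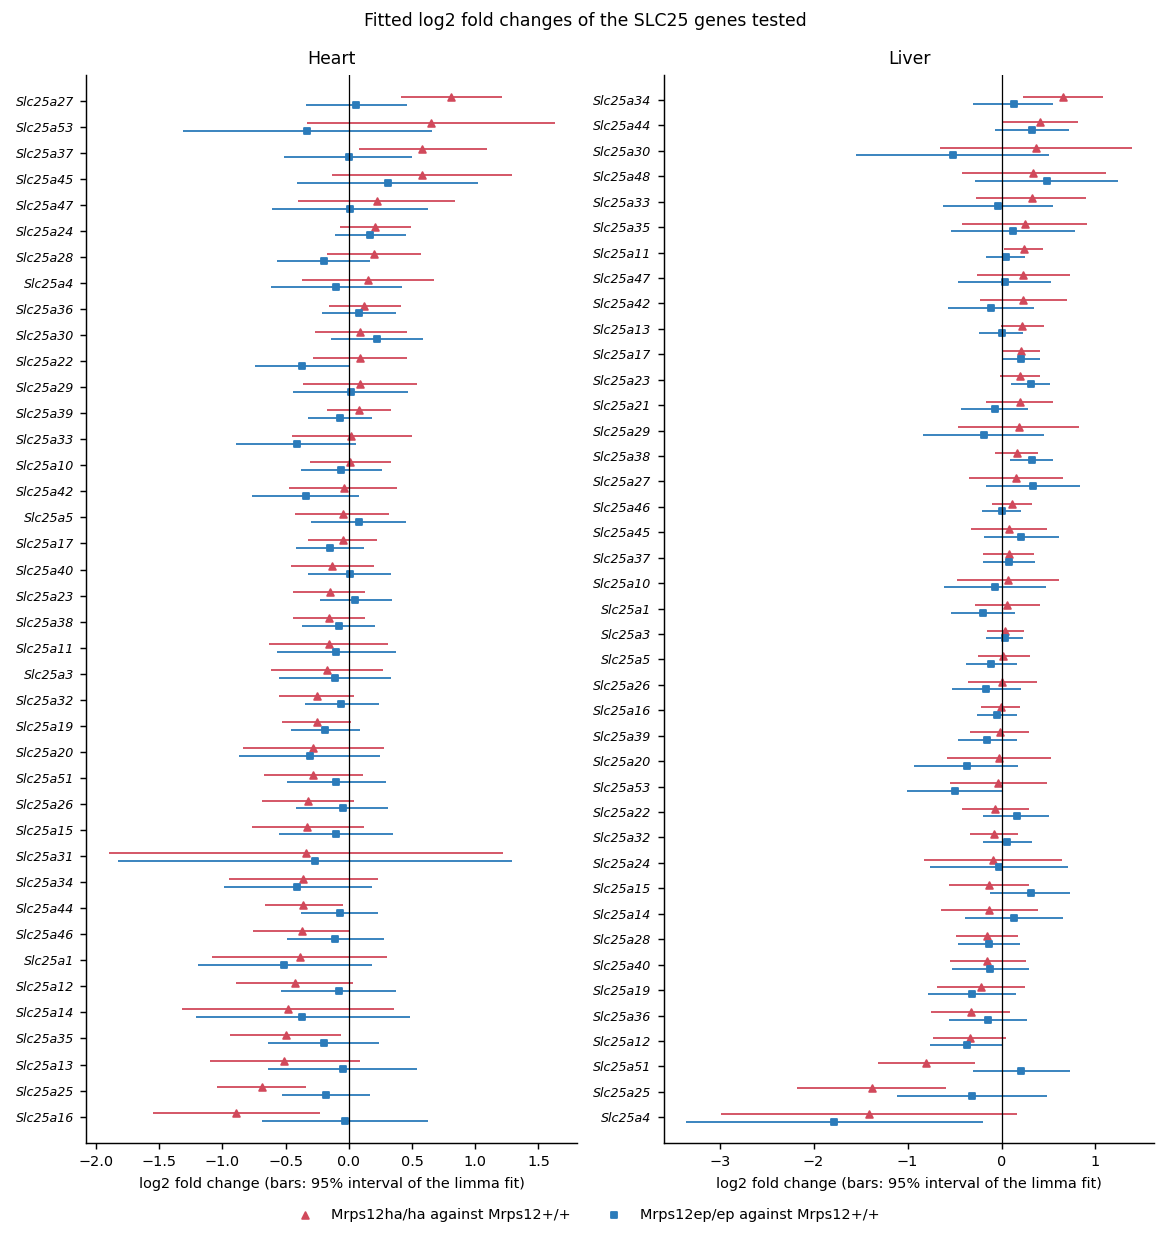
Fitted log2 fold changes (x axis) of the 40 SLC25 genes tested for hearts (left) and 41 for livers (right), against Mrps12+/+, with red triangles for Mrps12ha/ha, blue squares for Mrps12ep/ep and bars for the 95% interval of the limma fit, sorted by the Mrps12ha/ha value. Slc25a16 and Slc25a25 are at the low end in the heart and Slc25a27 at the high end, and in the liver Slc25a4, Slc25a25 and Slc25a51 are at the low end and Slc25a34 at the high end. No gene had an adjusted p under 0.05.

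By substrate, no group had a member that passed the test in any of the 6 comparisons. The groups are broad. That of adenine nucleotides and phosphate holds Slc25a17 and Slc25a42, carriers of cofactors and of coenzyme A. That of citrate, dicarboxylates and oxoacids holds Slc25a34, without an established substrate, and that of amino acids holds the choline carrier Slc25a48. Carriers of adenine nucleotides and phosphate (12 genes, with 9 tested for hearts and 8 for livers) had a median log2 fold change of -0.05 in Mrps12ha/ha hearts, from -0.69 in Slc25a25 to 0.21 in Slc25a24, and of 0.03 in Mrps12ha/ha livers. Carriers of citrate, dicarboxylates and oxoacids (6 genes) had a median of -0.36 in Mrps12ha/ha hearts, with 4 of 5 lower, beside 52.3% of all genes. In Mrps12ha/ha livers their median was 0.22, with a range of 0.06 to 0.65, the latter in Slc25a34. There 6 of 6 were higher, beside 47.5% of all genes. Carriers of amino acids, ornithine and carnitine (13 genes, 10 and 11 tested) had medians of -0.22 and 0.16. Carriers of cofactors, nucleotides, glutathione and iron (11 genes, all tested) had -0.13 and -0.08, with the extremes Slc25a16 (-0.89) and Slc25a37 (0.58) in the heart. Relatives of the uncoupling proteins and others (5 genes) had 0.09 and 0.11. Over all genes tested the median was -0.02 in both tissues.

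The whole family had a median log2 fold change of -0.15 in Mrps12ha/ha hearts, with 25 of 40 members (62.5%) lower, where 52.3% of all genes were lower and the median was -0.02. The 211 other solute carriers tested had a median of -0.08, and 79 nuclear genes of OXPHOS subunits had a median of 0.28, with 68 higher and 11 lower. By mouse, the median deviation of the members from the Mrps12+/+ mean was -0.16, 0.05 and -0.22 in the Mrps12ha/ha hearts, where the OXPHOS genes had 0.45, 0.17 and 0.24. The carriers were lower in mice 1 and 3 and not in mouse 2, and the OXPHOS genes were higher in all 3. In Mrps12ep/ep hearts the family had a median of -0.09, with 30 of 40 lower, beside 52.2% of all genes, and mouse medians of -0.01, -0.16 and -0.06. The OXPHOS genes there had a median of -0.08, with 74 of 79 lower, and mouse medians of 0.2, -0.37 and -0.07. Mouse 2 was the lowest of the Mrps12ep/ep hearts in both sets. In the liver the family's medians were 0.06 in Mrps12ha/ha and -0.03 in Mrps12ep/ep, where all 9 mouse medians lay between -0.09 and 0.08. The OXPHOS genes had 0.16 and 0.08. The direct comparison of the mutants gave -0.06 in the heart, which became 0.02 after quantile normalization, and 0.09 in the liver.

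**Figure D5:**
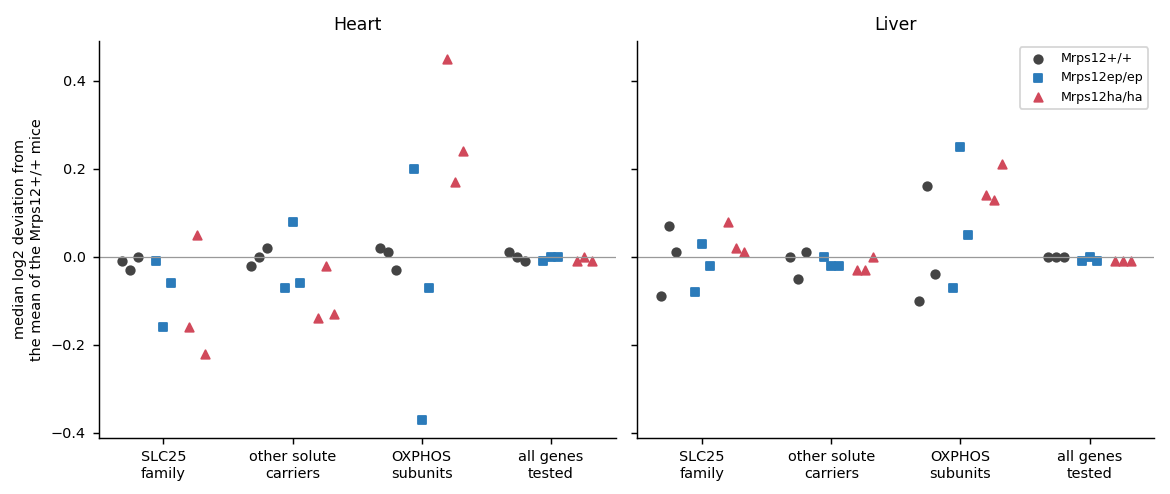
Median log2 deviation of each mouse from the mean of the Mrps12+/+ mice (y axis) over the SLC25 genes tested, the other solute carriers, the nuclear OXPHOS subunit genes and all genes tested, with 1 point per mouse. In the heart the Mrps12ha/ha mice are at -0.16, 0.05 and -0.22 for the SLC25 genes and at 0.45, 0.17 and 0.24 for the OXPHOS genes.

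Proteins of the family that go by other names and enzymes that work with its members were read beside it, and none passed the test in any comparison. Ucp3, an uncoupling protein of heart and muscle, had 2727, 2602 and 1917 in Mrps12+/+, 1557, 1472 and 1834 in Mrps12ep/ep and 3510, 2924 and 5499 in Mrps12ha/ha hearts. The 3 genotypes did not overlap. On the log2 scale the difference was 0.68 in Mrps12ha/ha (SE 0.23, limma adjusted p of 0.213), -0.56 in Mrps12ep/ep (SE 0.23, adjusted p of 1) and 1.25 between the mutants (SE 0.23, adjusted p of 0.179). In the liver Ucp3 had 34.3 and 74.4 in the muscle-rich Mrps12+/+ mice 1 and 2, 5.7 in mouse 3, 0 in all Mrps12ep/ep and 3.4 to 10.4 in Mrps12ha/ha livers. Ucp2, an uncoupling protein found in many cell types, had 3759, 2813 and 7362 in Mrps12+/+ and 2747, 1385 and 2319 in Mrps12ha/ha livers. This was a log2 fold change of -1.05 (SE 0.34, limma adjusted p of 0.24). The Mrps12ep/ep livers, with 2368, 2038 and 2033, were also below all controls. The control at 7362 was mouse 3, the liver with the most white adipocyte markers, whose part was not tested. Ucp1, the uncoupling protein of brown fat, had 8557 in the heart of Mrps12+/+ mouse 3 and 723 in that of Mrps12ep/ep mouse 2, with 0 to 25.1 in the other 7 hearts, and 0 to 2.8 in the livers. The outer membrane proteins Mtch1 and Mtch2 had 4156 to 5620 and 3077 to 5774 in the hearts and 2818 to 3292 and 5916 to 8916 in the livers.

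Of 22 other transport proteins of the mitochondrial membranes, all tested in both tissues, the one with the smallest unadjusted p in the liver was Slc8b1, the sodium-calcium exchanger of mitochondria. It had 2316, 2174 and 2265 in Mrps12+/+, 2843, 3339 and 4057 in Mrps12ep/ep and 3756, 4183 and 3243 in Mrps12ha/ha livers. All mutant livers were above all controls, with log2 fold changes of 0.72 (SE 0.14, limma adjusted p of 0.111) in Mrps12ha/ha and 0.58 (SE 0.14, adjusted p of 0.342) in Mrps12ep/ep. In the heart it was Vdac2, a channel of the outer membrane, with -0.47 (SE 0.19, adjusted p of 0.231) in Mrps12ha/ha, Sfxn5, a sideroflexin, with -0.32 (SE 0.16, adjusted p of 1) in Mrps12ep/ep and Abcb8 with 0.49 (SE 0.14, adjusted p of 0.237) between the mutants. Between the mutant livers it was Timm10, a chaperone for the import of carriers, with 0.32 (SE 0.14, adjusted p of 0.568).

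The 4 enzymes of the malate-aspartate shuttle are partners of Slc25a11, Slc25a12 and Slc25a13. Their median log2 fold change was -0.35 in Mrps12ha/ha hearts, with 4 of 4 lower, beside 52.3% of all genes. In Mrps12ha/ha livers it was 0.16, with 4 of 4 higher, beside 47.5% of all genes. The heart of Mrps12ha/ha mouse 2 was nevertheless above every Mrps12+/+ heart for all 4 enzymes. For Mdh1 it had 66853, beside 40242 and 35247 in mice 1 and 3. Those 2 hearts had the highest erythroid sums, whose part was not tested. Smallest by unadjusted p were Got1 in Mrps12ha/ha hearts (-0.44, SE 0.22, limma adjusted p of 0.282) and Mdh1 in Mrps12ep/ep livers (0.41, SE 0.13, adjusted p of 0.434). The 6 urea cycle enzymes, partners of Slc25a15 and Slc25a13, had medians of 0.44 in Mrps12ha/ha and 0.62 in Mrps12ep/ep livers. In each, 6 of 6 were higher, beside 47.5% and 48.9% of all genes. The Mrps12+/+ livers were spread widely, since Cps1 had 143050, 86227 and 37960 and Ass1 175189, 113530 and 54651, with the lowest values in mouse 3, the liver with the most white adipocyte markers. Mrps12+/+ mouse 1 lay above all Mrps12ha/ha livers for Ass1 and Arg1. Nags, which makes the activator of the cycle, had 2300, 2117 and 1984 in Mrps12+/+, 2396, 2859 and 2741 in Mrps12ep/ep and 2699, 2728 and 2902 in Mrps12ha/ha livers, with log2 fold changes of 0.38 (SE 0.10, adjusted p of 0.157) in Mrps12ha/ha and 0.32 (SE 0.10, adjusted p of 0.423) in Mrps12ep/ep. The 4 enzymes of citrate export and fatty acid synthesis, partners of Slc25a1, had medians of 0.66 and 0.58 in the same livers. The smallest unadjusted p belonged to Acaca in Mrps12ha/ha (0.61, SE 0.31, limma adjusted p of 0.417) and to Fasn in Mrps12ep/ep (0.76, SE 0.38, adjusted p of 0.543). Here too Mrps12+/+ mouse 3 was the lowest control for all 4, with Fasn at 42090, 23195 and 14603 in mice 1, 2 and 3. Other controls lay inside the range of both mutants, mouse 1 for Acly, Acaca and Fasn and mouse 2 for Me1. Of the 4 carnitine shuttle enzymes, partners of Slc25a20, Cpt1b, the muscle form of carnitine palmitoyltransferase 1, had 479, 707 and 567 in Mrps12+/+ and 182, 338 and 253 in Mrps12ep/ep livers (-1.20, SE 0.38, adjusted p of 0.435). Without Mrps12+/+ mice 1 and 2 it differed by -1.18 (SE 0.57, adjusted p of 0.277), against mouse 3 alone, the liver with the most white adipocyte markers.

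Slc25a31, the adenine nucleotide translocase of the germline, was just above the filter in the heart, with 3.7 to 24.1 normalized counts. Members below the filter were Slc25a2, Slc25a18, Slc25a41, Slc25a43 and Slc25a54 in both tissues, Slc25a21 and Slc25a48 in the heart and Slc25a31 in the liver. Slc25a41, an ATP-Mg/phosphate exchanger, had 7 reads in 4 of the 9 hearts and none in the livers. Slc25a31 had 0 to 15.2 normalized counts in the livers. At this depth no difference by genotype can be read for these genes.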

How the data were processed

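RNA was measured in 54 libraries from hearts and livers, 3 technical libraries per mouse, which the authors pooled to 1 column per mouse. Per the study's methods and the submitters' processing notes, reads were trimmed (Trim Galore 0.4.1, cutadapt 1.18, FastQC 0.11.8), quantified with Salmon 1.1.0 against GENCODE transcripts, and scaled with DESeq2, with mitochondrial transcripts left out of the authors' differential expression step. The deposited values are the authors' normalized counts per gene, another unit than raw counts, written with comma separators, with heart and liver normalized separately. The deposited tables of the authors' own comparisons hold fold changes and p-values and were not used. Each value divided by the worth of 1 read gave the reads on genes per mouse, and so the depth. Values were tested as log2(normalized count + 1), so folds of low genes are understated, with limma 3.58.1 (R 4.3.3; trend, all 9 mice of a tissue in a fit, mean of at least 10 normalized counts) and Benjamini-Hochberg adjustment over all genes tested. The labels number the mice in each genotype, and p-values set each difference against the spread between these mice. The fit was tested on simulated data. Named were the 5 members with the smallest unadjusted p in each comparison, the 8 highest per tissue, those 10-fold apart between tables, members under other symbols, and in each partner list the gene with the smallest unadjusted p, with examples given where a list was described in several comparisons. Members and lists were chosen with earlier results of these data known. Alternatives were another pseudocount, filters, quantile normalization, array weights, a replicate block, each mouse left out and, chosen after seeing the data, limma-voom on the recovered reads, re-centring, and leaving out both muscle-rich livers. Samples with the same number did not correlate over 0.1 in every pair (-0.231 to 0.578), so the numbers were not taken to pair mice. Promoter sequences and positions are RefSeq's and GENCODE's in GRCm38.p6. Intervals cover the spread between mice.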

Additional observations from a re-analysis of the deposited data

Results flagged for a closer look

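Slc25a17, a peroxisomal carrier of cofactors, differed in opposite directions between the tissues in Mrps12ep/ep mice. In the heart it had 557, 549 and 651 normalized counts in Mrps12+/+ and 496, 545 and 537 in Mrps12ep/ep mice, a log2 fold change of -0.15, with every mutant below every control. In the liver it had 2060, 1937 and 1823 in Mrps12+/+ and 2118, 2394 and 2228 in Mrps12ep/ep mice, a log2 fold change of 0.21, with every mutant above every control. The difference between the tissues was not tested, and neither change passed the limma test. Of 14070 genes tested in both tissues, 34 (0.242%) had groups that did not overlap and were lower in the heart and higher in the liver. The other combinations had similar counts. Without overlap, 28 genes were higher in both tissues, 36 were lower in both, and 35 were higher in the heart and lower in the liver.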

How the results depend on the processing

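With 3 mice per genotype, the absence of calls does not show that levels were equal. The number of members past the threshold, 0 in each comparison, was still 0 in 112 repeats under other settings and above 0 in 5. In the heart, array weights gave 15 members in Mrps12ha/ha against Mrps12+/+ and 16 against Mrps12ep/ep, beside 34.7% and 39.3% of all genes. Leaving out 1 mouse at a time gave 0 to 12 members in each of these comparisons, with 12 only without Mrps12ha/ha mouse 2. In the liver, leaving out both muscle-rich Mrps12+/+ mice gave 2 members in Mrps12ep/ep. The family's median log2 fold change ranged over all settings from -0.24 to -0.06 in Mrps12ha/ha hearts, -0.13 to -0.04 in Mrps12ep/ep hearts and -0.12 to 0.03 between them, and from 0.02 to 0.10, -0.09 to 0.05 and 0.03 to 0.13 in the liver. The 0.05 came without Mrps12+/+ liver 2 and the 0.03 in the liver without Mrps12ep/ep mouse 1. The fit with the replicate block left 0 members called in all comparisons and the medians at -0.15, -0.09 and -0.06 in the heart and 0.06, -0.03 and 0.09 in the liver. No named gene was called in the main fit, so there was no called direction that could reverse. Repeats for named genes passed the threshold 40 times and did not 1245 times. Fitted sizes could move. Without both muscle-rich livers the log2 fold change of Slc25a4 in Mrps12ep/ep livers went from -1.78 to -0.01, with 1 control liver left. The planned edgeR and DESeq2 fits were not run, because the deposited values are not raw counts; limma-voom on the recovered reads called 0 members in each comparison.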
